A study of Anser cygnoides with 6 samples.

Results

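Genes of the extracellular matrix were compared in primary myoblasts of Shitou goose (Anser cygnoides) embryos at the differentiation stage (DM) and the proliferation stage (GM). They were chosen by gene symbol, as the collagen chains, laminins, nidogens, collagen prolyl and lysyl hydroxylases, the collagen chaperone SERPINH1, lysyl oxidases, elastin, fibrillins, fibulins, emilins, fibronectin and the FNDC genes. The choice was made with earlier results of these data known. The rule matched 78 of 14283 genes in the table. Of these, 9 have symbols that match by spelling or by a fibronectin-type domain and are described last, namely COL4A3BP, LOXHD1 and 7 FNDC genes.

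All 6 cultures carried the wild-type genotype and grew from leg muscle cells that the study mixed from several embryos, enriched for myoblasts by serial plating and divided. The 3 DM cultures were switched to medium with 2% horse serum, for which the labels give 2 to 4 days, and the 3 GM cultures were kept in DMEM with 15% fetal bovine serum. Each culture gave 1 library of total RNA depleted of ribosomal RNA. The study's methods elsewhere speak of data from 6 geese, which differs from this account and could not be settled here. The libraries are taken as cultures from 1 mixed pool. On that reading, p-values here measure the spread between these cultures and not between animals.

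The extracellular matrix is the mesh of secreted proteins around cells. Fibrillar collagens form its tensile cables after their proline and lysine residues are hydroxylated, a chaperone has helped them fold in the endoplasmic reticulum and lysyl oxidases have cross-linked them. In skeletal muscle, fibrillar collagens lie between the fibers, whereas laminins, nidogens and type IV collagen build the basement membrane on the surface of each fiber, to which its integrins and dystroglycan attach. Fibrillins, fibulins and elastin build elastic fibers.

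FPKM, fragments per length of gene and per depth of library, was the deposited level of each gene. Stages were compared with limma on log2(FPKM + 1) over the 10381 genes that averaged 0.5 FPKM or more, and adjusted p-values are Benjamini-Hochberg values over all of these genes. A gene is said to have passed at an adjusted p-value under 0.05. Log2 fold changes (DM over GM) are on the log2(FPKM + 1) scale, which understates the change of genes at a low level. The values are of bulk cultures, in which fewer cells of one type and less RNA per cell cannot be told apart.

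Of the 78 matrix genes 61 were tested, and 25 were higher and 15 were lower in DM. These 40 genes are 65.6% of the tested matrix genes, against 30.3% of all tested genes that passed in either direction (14.7% higher, 15.5% lower). A log2 fold change of more than 1 was reached by 9 higher genes and 1 lower gene, 16.4% of the tested matrix genes, against 4.02% of all tested genes (2.18% higher, 1.84% lower). The DM and GM libraries did not overlap in 43 of the 61 genes (70.5%), against 48.6% of all tested genes. Matrix genes also stood at a higher level than the rest, with a median of 11.7 FPKM against 5.46 FPKM over all tested genes. Among genes that averaged 10 FPKM or more, 62.5% of 32 matrix genes and 35.6% of 3115 genes in all passed. The median log2 fold change was 0.06 over the 61 genes and -0.03 over all tested genes, so the genes as a whole did not move one way. The calls of 29 of the 40 genes were kept whichever library was left out, and the other 11 are given below with the libraries they rest on. Without GM_2 the lower genes numbered 9 in place of 15. The 17 genes that were not tested reached at most 0.475 FPKM in any library, the value of COL7A1 in GM_1.

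**Figure D1:**
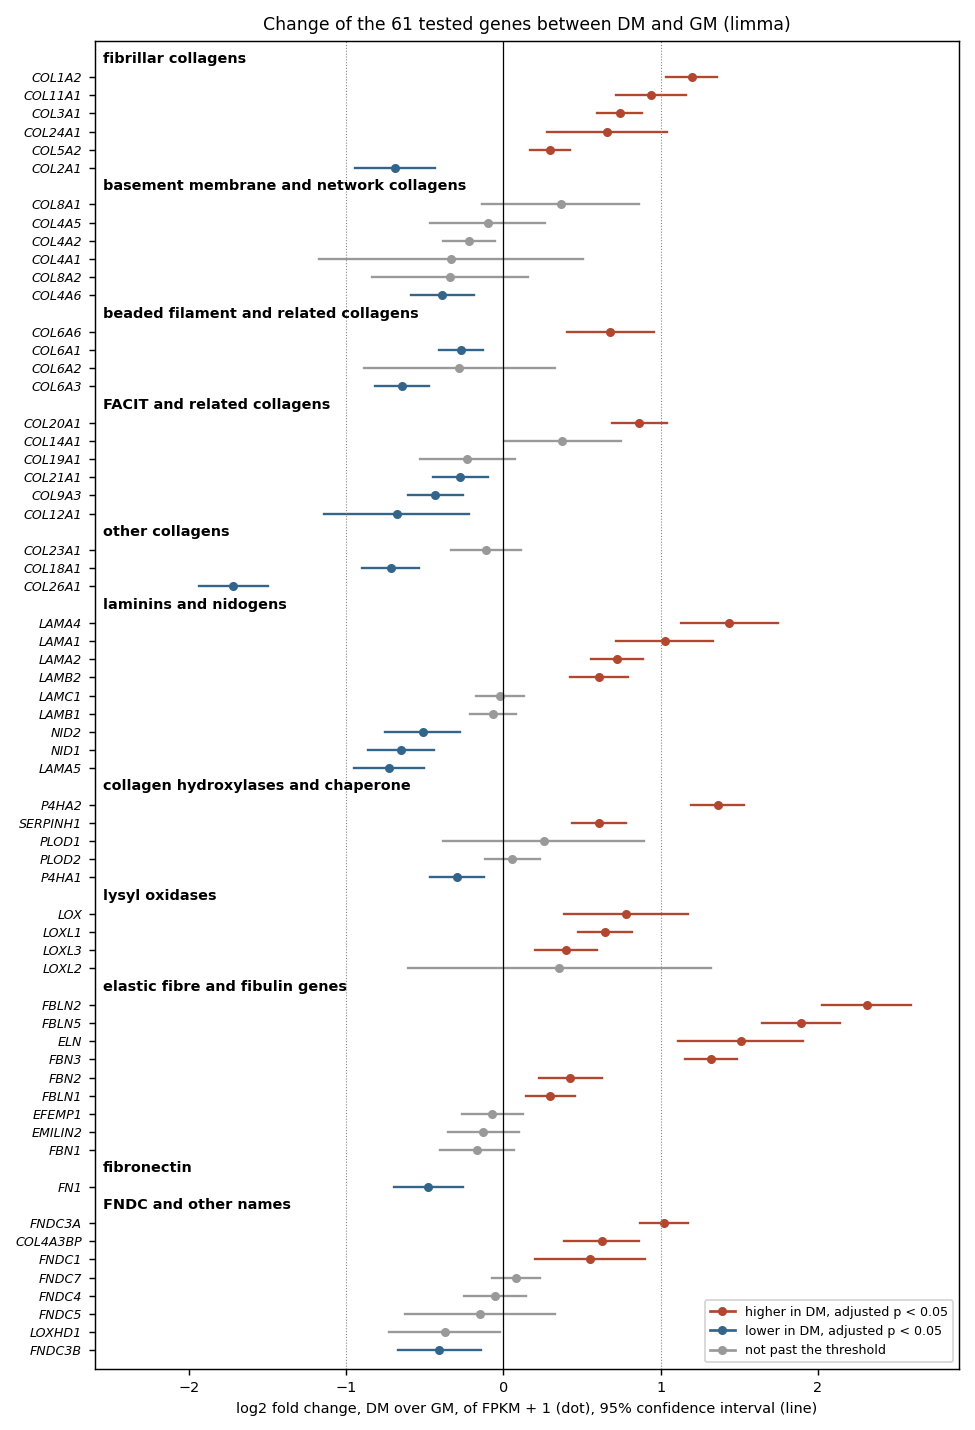
Log2 fold change (DM over GM, log2(FPKM + 1) scale) of the 61 tested matrix genes by group, with 95% confidence intervals from limma. Red genes are the 25 that passed and were higher in DM, blue genes the 15 that passed and were lower in DM, and grey genes the 21 that did not pass, and dotted lines mark a log2 fold change of 1 in either direction.

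Marker genes of other cell types were looked up in the same table. Of 9 fibroblast markers looked up, all were found, 8 were tested and 5 were higher in DM (PDGFRA, DCN, LUM, DPT and OGN). THY1, MFAP5 and FAP were tested and did not pass, and TCF21 was below 0.5 FPKM in every library. The fibroblast markers summed to 1985 to 2281 FPKM in the DM libraries and 876 to 924 FPKM in the GM libraries. DCN (means of 1004 FPKM in DM and 440 FPKM in GM) and LUM (899 FPKM in DM and 352 FPKM in GM) made up most of this sum. MFAP5 is also on the list of matrix partners below, so the fibroblast list is not fully separate from the matrix genes. Of 12 myoblast and muscle markers looked up, 8 were found, of which MYH15 and MYL3 were higher and MYOD1, MYF5 and PAX7 lower in DM. MYOG (means of 19.1 FPKM in DM and 26.3 FPKM in GM, adjusted p = 0.0528 in limma) did not pass. Neither did ACTA1 (32.4 FPKM in DM and 38.2 FPKM in GM) or TNNT3 (14.7 FPKM in DM and 10.4 FPKM in GM). The 8 markers summed to 147 to 157 FPKM in DM and 174 to 184 FPKM in GM. Of 5 smooth muscle and pericyte markers looked up, 3 were found. These summed to 203 to 293 FPKM in DM and 437 to 472 FPKM in GM, of which most was ACTA2, lower in DM. MYH11 (means of 1.38 FPKM in DM and 1.11 FPKM in GM) and RGS5 (1.53 FPKM in DM and 1.26 FPKM in GM) had higher means in DM and did not pass. The fall of the sum is thus that of ACTA2 alone. The chondrocyte markers summed to at most 2.07 FPKM in DM and 4.28 FPKM in GM, with MATN1 listed at 0 in all 6 libraries. That list holds COL2A1 and COL9A1, which are matrix genes of the rule, and COL2A1 made up most of its sum, so it is no independent measure. Tendon, endothelial, adipocyte, Schwann cell and macrophage markers summed to at most 12.6 FPKM in DM and 15.3 FPKM in GM for any of these lists. Of their tested genes, MKX (tendon) was higher in DM. PECAM1 (endothelial), PPARG (adipocyte), SOX10 (Schwann cell), and PTPRC and SPI1 (macrophage) were lower in DM. EGFL7, ADIPOQ and CSF1R did not pass. The macrophage markers summed to 10.8 to 12.6 FPKM in DM and 14.7 to 15.3 FPKM in GM. The part of the cell types marked by these lists in the changes of matrix genes was not tested. The sums of FPKM over all genes were close, 171956 to 189885 in DM and 173444 to 182078 in GM.

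Fibrillar collagens are the chains of the tensile fibrils. All 6 tested chains passed, 5 of them higher in DM, with a median log2 fold change of 0.70. COL1A2, the alpha-2 chain of type I collagen, had 1629.6, 1616 and 1608 FPKM in DM_1, DM_2 and DM_3, against 743, 669 and 706 FPKM in GM_1, GM_2 and GM_3. Every DM library was more than 2-fold above every GM library. Its log2 fold change (1.20, standard error 0.067) passed at an adjusted p-value of 0.000220, and it was the 11th highest gene of the table by mean FPKM.

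COL3A1, the chain of type III collagen that co-assembles with type I, had 856, 835 and 860.2 FPKM in the DM libraries and 499, 500.2 and 528 FPKM in the GM libraries. The stages were far apart relative to their spread, as the log2 fold change shows (0.74, standard error 0.059, adjusted p = 0.000612). COL5A2, a chain of the type V collagen found within type I fibrils, differed less, with 141, 135 and 132 FPKM in DM and 108, 111 and 113 FPKM in GM. Its libraries still did not overlap (log2 fold change 0.29, standard error 0.053, adjusted p = 0.00970). COL3A1 and COL5A2 are neighbours in the genome and both were higher in DM.

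COL11A1, a minor fibril chain best known from cartilage, had 12.2, 11.3 and 10.2 FPKM in DM and 5.31, 5.01 and 5.81 FPKM in GM (log2 fold change 0.94, standard error 0.091, adjusted p = 0.00122). COL24A1, a minor fibrillar chain of bone, was low in both stages, at 2.22, 1.80 and 1.12 FPKM in DM and 0.732, 0.594 and 0.756 FPKM in GM. It passed at an adjusted p-value of 0.0253, and no longer did with DM_2, GM_1, GM_2 or GM_3 left out (adjusted p up to 0.0797). COL2A1, the main collagen of cartilage, was the 1 of these 6 tested chains that was lower in DM, with 1.11, 1.25 and 1.67 FPKM in DM and 2.75, 2.81 and 2.74 FPKM in GM. The GM libraries were all above the DM libraries (log2 fold change -0.69, standard error 0.10, adjusted p = 0.00527). COL27A1 was at most 0.0309 FPKM and was not tested.

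The partner chains COL1A1 and COL5A1 carry no gene symbol in the table and were found through their NCBI gene numbers after the values had been seen, so they are not among the 78. COL1A1, the alpha-1 chain of type I collagen, had 1891, 1600.0 and 1513 FPKM in DM and 885, 764 and 876 FPKM in GM. It was higher in every DM library (log2 fold change 0.98, standard error 0.11, adjusted p = 0.00187). COL5A1 averaged 80.2 ± 3.93 FPKM in DM and 84.7 ± 5.11 FPKM in GM (SD, n = 3 each) and did not pass (log2 fold change -0.08, 95% confidence interval -0.24 to 0.09, adjusted p = 0.434). COL11A2, found the same way, averaged 0.564 ± 0.0432 FPKM in DM and 1.78 ± 0.265 FPKM in GM (log2 fold change -0.82, standard error 0.089, adjusted p = 0.00165).

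Thus COL11A1 was higher and COL11A2 lower in DM, and of type V the alpha-2 chain passed and the alpha-1 chain did not. Within each library, the ratio of COL5A1 to COL5A2 was 0.590 ± 0.0159 in DM and 0.766 ± 0.0397 in GM (SD, n = 3 each). These ratios did not overlap, and the exact two-sided permutation test gave p = 0.1, the smallest value that 3 libraries against 3 allow. The ratio of COL1A1 to COL1A2 overlapped between the stages, at 1.03 ± 0.115 in DM and 1.19 ± 0.0494 in GM (exact p = 0.2). Over all 14 ratios compared, 7 did not overlap, each at an exact permutation p of 0.1 (adjusted 0.2), and with 3 libraries against 3 no ratio could reach 0.05.

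**Figure D2:**
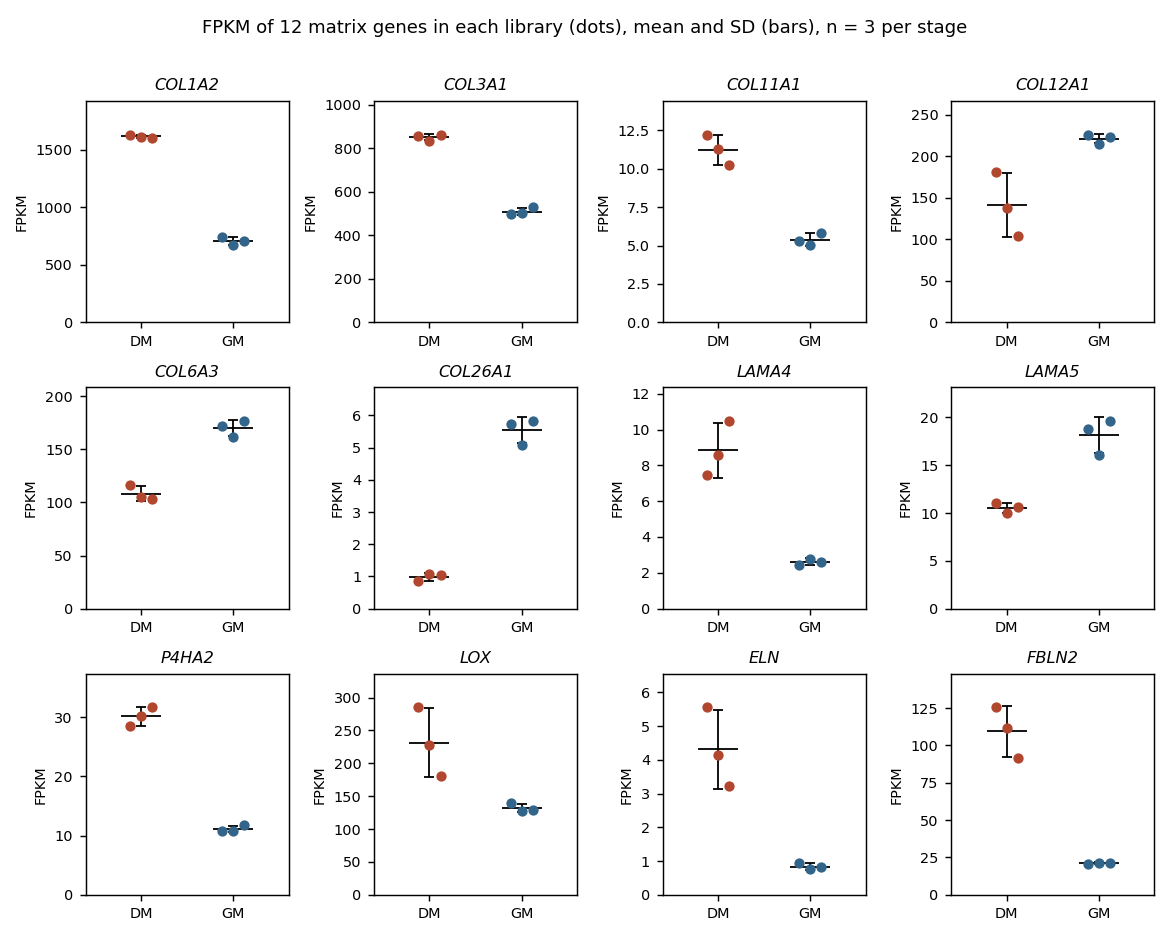
FPKM of 12 matrix genes in each DM library (red dots, left) and GM library (blue dots, right), with the mean and SD of 3 libraries as black bars, each panel on its own linear axis from 0. COL1A2, COL3A1, COL11A1, LAMA4, P4HA2, LOX, ELN and FBLN2 lie higher in DM, and COL12A1, COL6A3, COL26A1 and LAMA5 lie lower in DM, with no overlap of libraries in any panel.

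Network collagens of the basement membrane and related sheets (types IV, VIII and X) mostly did not pass. Of 6 tested chains 1 passed, which was lower in DM. COL4A1 and COL4A2, the chains of the most widespread type IV network and genome neighbours, both had a lower mean in DM, and neither passed. COL4A1 had 17.1, 8.81 and 6.14 FPKM in DM and 12.9, 15.3 and 10.2 FPKM in GM, an overlap in which DM_1 was the highest library of all (log2 fold change -0.33, 95% confidence interval -1.17 to 0.50, adjusted p = 0.502). COL4A2 was steadier, with 10.1, 9.44 and 9.11 FPKM in DM and 11.1, 11.1 and 11.7 FPKM in GM. Its libraries did not overlap, but its adjusted p-value was 0.0540 (log2 fold change -0.22, 95% confidence interval -0.38 to -0.06). It was 0.0352 with DM_1 left out and 0.0353 with no filter on low values.

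The ratio of COL4A1 to COL4A2 within a library was 1.10 ± 0.523 in DM and 1.14 ± 0.255 in GM (SD, n = 3 each, exact permutation p = 0.8). COL4A5, a chain of a more restricted type IV network, averaged 1.69 ± 0.510 FPKM in DM and 1.85 ± 0.143 FPKM in GM and did not pass (adjusted p = 0.648). The ratio of COL4A5 to COL4A1 was 0.171 ± 0.0388 in DM and 0.150 ± 0.0381 in GM (SD, n = 3 each, exact permutation p = 0.5). Its neighbour and partner COL4A6 was the chain that passed, with 0.588, 0.478 and 0.388 FPKM in DM and 1.08, 0.904 and 0.842 FPKM in GM (log2 fold change -0.39, adjusted p = 0.0177). The COL4A6 libraries did not overlap, and the call was lost with DM_2, GM_1 or GM_2 left out (adjusted p up to 0.0587). COL4A3 and COL4A4 stayed at or below 0.134 FPKM and COL10A1 at or below 0.351 FPKM, and these were not tested.

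COL8A1, a chain of the short-chain network collagen of vessel walls and eye membranes, had 45.7, 32.7 and 24.8 FPKM in DM and 25.3, 26.6 and 25.2 FPKM in GM. DM_1 and DM_2 stood above all GM libraries and DM_3 below them, and the gene did not pass (log2 fold change 0.36, adjusted p = 0.229), although it did with DM_3 left out (adjusted p = 0.0457). Its partner COL8A2 averaged 1.32 ± 0.680 FPKM in DM and 1.87 ± 0.217 FPKM in GM (SD, n = 3 each, adjusted p = 0.252).

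Type VI collagen, which forms beaded filaments just outside the muscle basement membrane, was abundant in both stages. COL6A1 had 261, 249.6 and 244 FPKM in DM and 301, 296 and 314 FPKM in GM. The GM libraries were all higher (log2 fold change -0.27, standard error 0.057, adjusted p = 0.0165), a call lost with DM_2, GM_1, GM_2 or GM_3 left out (adjusted p up to 0.0666). COL6A3, the largest chain, had 117, 106 and 103 FPKM in DM and 172, 162 and 176 FPKM in GM, again with no overlap and with a larger difference (log2 fold change -0.65, standard error 0.070, adjusted p = 0.00169). The ratio of COL6A3 to COL6A1 was 0.430 ± 0.0145 in DM and 0.560 ± 0.0130 in GM (SD, n = 3 each), without overlap (exact permutation p = 0.1).

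COL6A2, the neighbour of COL6A1, had 219, 135 and 130.5 FPKM in DM and 247, 168 and 167 FPKM in GM. In each stage the library numbered 1 was far above the other two, so that the stages overlapped (log2 fold change -0.28, adjusted p = 0.435). The ratio of COL6A1 to COL6A2 was therefore lowest in those libraries, 1.19 in DM_1 and 1.22 in GM_1, and 1.77 to 1.88 in the others. COL6A6, a chain of low level thought in mammals to take the place of COL6A3, was higher in DM, with 2.12, 1.83 and 1.36 FPKM in DM and 0.705, 0.753 and 0.689 FPKM in GM (log2 fold change 0.68, standard error 0.11, adjusted p = 0.00760). COL28A1 was at most 0.0419 FPKM.

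Collagens that sit on the surface of fibrils (FACIT) were mixed. Of 6 tested chains 1 was higher and 3 were lower in DM. COL12A1, which binds type I fibrils in muscle and tendon, was the most abundant of them, with 181, 138 and 104 FPKM in DM and 225, 214 and 224 FPKM in GM. The DM libraries were widely spread but all below GM (log2 fold change -0.68, standard error 0.19, adjusted p = 0.0410). The call was lost with DM_2, GM_1, GM_2 or GM_3 left out (adjusted p 0.0932 to 0.107), and also with median-ratio scaling (0.0590) and with no filter on low values (0.0766). COL14A1, a similar chain, had 5.39, 4.79 and 3.31 FPKM in DM and 3.12, 3.33 and 3.11 FPKM in GM and did not pass (log2 fold change 0.37, adjusted p = 0.117), except with DM_3 left out (adjusted p = 0.0146).

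COL20A1, a little-studied chain of the same family, was 3.09-fold higher in DM by mean FPKM, with 1.92, 1.98 and 2.06 FPKM in DM and 0.743, 0.617 and 0.573 FPKM in GM. The DM libraries lay close together (log2 fold change 0.86, standard error 0.072, adjusted p = 0.000760). COL9A3, a chain of cartilage type IX collagen, fell to 0.494, 0.384 and 0.348 FPKM in DM, against 0.925, 0.809 and 0.974 FPKM in GM (log2 fold change -0.43, adjusted p = 0.00752). COL21A1 averaged 1.24 ± 0.0852 FPKM in DM and 1.71 ± 0.1002 FPKM in GM (SD, n = 3 each, log2 fold change -0.27, adjusted p = 0.0340), a call lost with any 1 of the 6 libraries left out (adjusted p 0.0504 to 0.1003). COL19A1 did not pass (adjusted p = 0.214), and COL9A1, COL9A2 and COL22A1 stayed at or below 0.208 FPKM.

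Among the remaining collagens, COL18A1, the multiplexin of basement membranes whose end fragment is endostatin, was lower in every DM library. It had 5.29, 4.85 and 5.03 FPKM in DM and 9.32, 8.39 and 9.19 FPKM in GM (log2 fold change -0.72, standard error 0.075, adjusted p = 0.00151). COL26A1, a small collagen first described in mouse testis and ovary, had the steepest fall of the tested matrix genes. It had 0.852, 1.08 and 1.04 FPKM in DM and 5.73, 5.08 and 5.82 FPKM in GM, a 5.60-fold lower mean in DM (log2 fold change -1.72, standard error 0.090, adjusted p = 0.000201). The table joins COL26A1 with a neighbouring hydroxysteroid dehydrogenase-like locus in 1 row, so reads of either gene could contribute. COL23A1, a transmembrane collagen, averaged 2.73 ± 0.252 FPKM in DM and 3.02 ± 0.256 FPKM in GM (SD, n = 3 each) and did not pass (adjusted p = 0.408). COL7A1, COL17A1 and COL25A1 were below the level tested.

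Laminins are trimers of an alpha, a beta and a gamma chain, and the alpha chain sets which receptors they bind. Of the laminins and nidogens tested, 4 were higher and 3 lower in DM, and 2 did not pass. The alpha chains went apart. LAMA4, the alpha chain of vessels and of embryonic muscle, had 7.47, 8.56 and 10.5 FPKM in DM and 2.41, 2.80 and 2.62 FPKM in GM (log2 fold change 1.44, standard error 0.13, adjusted p = 0.000908). Its lowest DM library was more than 2-fold above its highest GM library. LAMA1, the alpha chain of early embryonic basement membranes, had 4.91, 3.78 and 3.40 FPKM in DM and 1.54, 1.32 and 1.50 FPKM in GM (log2 fold change 1.03, standard error 0.13, adjusted p = 0.00249). This log2 fold change was 0.90 with DM_1 left out, with the adjusted p-value still under 0.05.

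LAMA2, the main alpha chain around muscle fibers, in which mutations cause a congenital muscular dystrophy in humans, had 7.98, 7.80 and 7.64 FPKM in DM and 4.52, 4.15 and 4.33 FPKM in GM. The libraries of each stage were tight and far apart (log2 fold change 0.72, standard error 0.069, adjusted p = 0.00117). LAMA5, a widespread alpha chain, moved the other way, with 11.01, 9.96 and 10.6 FPKM in DM and 18.7, 16.02 and 19.6 FPKM in GM (log2 fold change -0.73, standard error 0.091, adjusted p = 0.00264). The ratio of LAMA5 to LAMA2 was accordingly 1.35 ± 0.0608 in DM and 4.18 ± 0.332 in GM (SD, n = 3 each), and that of LAMA4 to LAMA2 was 1.13 ± 0.219 in DM and 0.604 ± 0.0702 in GM. Neither ratio overlapped between the stages (exact permutation p = 0.1 each).

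The beta and gamma chains shared by most of these trimers were the more abundant ones and did not pass. LAMB1 averaged 28.4 ± 0.860 FPKM in DM and 29.9 ± 1.40 FPKM in GM (SD, n = 3 each), with a 95% confidence interval of its log2 fold change of -0.22 to 0.08. LAMC1 averaged 51.9 ± 1.14 FPKM in DM and 52.7 ± 3.21 FPKM in GM (SD, n = 3 each, 95% confidence interval -0.17 to 0.13). LAMB2, the beta chain concentrated at the neuromuscular junction, was higher in DM, with 12.1, 11.1 and 11.1 FPKM in DM and 7.05, 6.75 and 7.68 FPKM in GM (log2 fold change 0.61, standard error 0.076, adjusted p = 0.00259). The ratio of LAMB2 to LAMB1 was 0.403 ± 0.0315 in DM and 0.240 ± 0.0127 in GM (SD, n = 3 each), without overlap (exact permutation p = 0.1). That of LAMC1 to LAMB1 overlapped, at 1.83 ± 0.0347 in DM and 1.77 ± 0.166 in GM (exact permutation p = 0.9). LAMB3 and LAMB4 were at or below 0.128 FPKM and were not tested.

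The nidogens, which link laminin to type IV collagen, were both lower in DM. NID1 had 16.8, 14.5 and 13.5 FPKM in DM and 24.5, 23.3 and 24.1 FPKM in GM (log2 fold change -0.65, standard error 0.087, adjusted p = 0.00336). NID2 had 37.3, 41.2 and 45.8 FPKM in DM and 54.0, 62.3 and 62.2 FPKM in GM (log2 fold change -0.51, standard error 0.098, adjusted p = 0.0120). Neither gene's libraries overlapped between the stages.

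**Figure D3:**
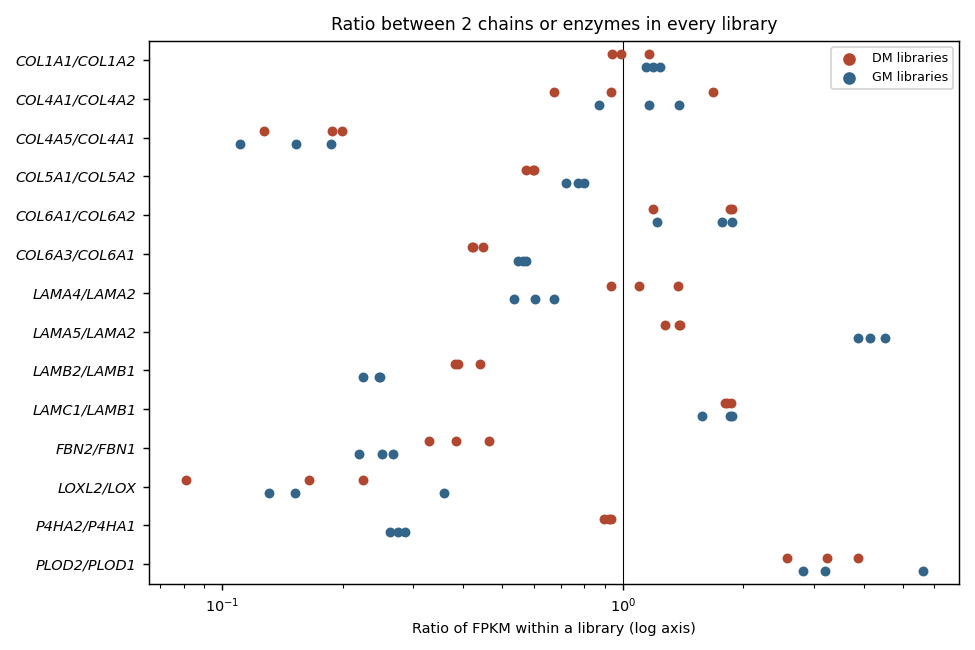
Ratio of FPKM between 2 chains or enzymes within each DM library (red, upper dots of a pair) and GM library (blue, lower dots) on a log axis, with a line at a ratio of 1. The ratios of LAMA5 to LAMA2 (1.35 in DM, 4.18 in GM, means of 3) and of P4HA2 to P4HA1 (0.918 in DM, 0.274 in GM) lie farthest apart, and 7 of the 14 ratios do not overlap.

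Enzymes that modify new collagen chains differed even within a family. P4HA2, an alpha subunit of the prolyl 4-hydroxylase that stabilizes the triple helix, had 28.6, 30.2 and 31.7 FPKM in DM and 10.9, 10.7 and 11.8 FPKM in GM (log2 fold change 1.36, standard error 0.069, adjusted p = 0.000197). P4HA1, the alternative alpha subunit, was lower, with 31.0, 33.7 and 33.9 FPKM in DM and 38.0, 40.9 and 42.9 FPKM in GM (log2 fold change -0.30, standard error 0.070, adjusted p = 0.0238). Both sets of libraries were without overlap, though the call of P4HA1 was lost with DM_2, GM_2 or GM_3 left out (adjusted p up to 0.0791). The ratio of P4HA2 to P4HA1 was 0.918 ± 0.0201 in DM and 0.274 ± 0.0119 in GM (SD, n = 3 each), so that the subunits stood at nearly the same FPKM in DM and P4HA1 was well above P4HA2 in GM (exact permutation p = 0.1). P4HB, the beta subunit that both share, had 305, 189 and 192 FPKM in DM and 302, 179.5 and 196 FPKM in GM. It was high in the library numbered 1 of each stage and did not pass (log2 fold change 0.02, 95% confidence interval -0.62 to 0.66, adjusted p = 0.966).

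SERPINH1, the collagen-specific chaperone of the endoplasmic reticulum also called HSP47, had 326, 318 and 342 FPKM in DM and 199, 224 and 224 FPKM in GM. All DM libraries were higher (log2 fold change 0.61, standard error 0.071, adjusted p = 0.00201). The lysyl hydroxylases did not pass. PLOD2, which hydroxylates the collagen telopeptides that are cross-linked, averaged 72.6 ± 4.91 FPKM in DM and 69.7 ± 3.47 FPKM in GM (SD, n = 3 each, adjusted p = 0.586), and PLOD1 averaged 22.99 ± 4.01 FPKM in DM and 19.7 ± 6.74 FPKM in GM (adjusted p = 0.499). PLOD1 was lowest in GM_1, at 12.5 FPKM. The ratio of PLOD2 to PLOD1 was 3.23 ± 0.648 in DM and 3.87 ± 1.51 in GM (SD, n = 3 each, exact permutation p = 0.7).

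Lysyl oxidases start the cross-links of collagen and elastin outside the cell. Of the 4 genes tested, 3 were higher in DM. LOX had 285, 228 and 181 FPKM in DM and 139.7, 128 and 128 FPKM in GM. The lowest DM library was above the highest GM library (log2 fold change 0.78, standard error 0.16, adjusted p = 0.0160), and the adjusted p-value was 0.0531 to 0.0542 with DM_2, GM_2 or GM_3 left out and 0.0582 with quantile normalization. LOXL1, the member most tied to elastin, had 38.2, 35.8 and 37.9 FPKM in DM and 21.6, 23.9 and 24.8 FPKM in GM (log2 fold change 0.65, standard error 0.071, adjusted p = 0.00169). LOXL3 averaged 4.74 ± 0.139 FPKM in DM and 3.37 ± 0.291 FPKM in GM (SD, n = 3 each, log2 fold change 0.40, adjusted p = 0.0155), and its call was lost with GM_2 or GM_3 left out (adjusted p up to 0.0556). LOXL2, which acts on type IV collagen, was unlike the others in its spread, with 23.1, 37.7 and 40.6 FPKM in DM and 21.3, 16.7 and 45.9 FPKM in GM. GM_3 was the highest library of all and the gene did not pass (log2 fold change 0.36, 95% confidence interval -0.61 to 1.32). The ratio of LOXL2 to LOX was 0.157 ± 0.0721 in DM and 0.213 ± 0.125 in GM (SD, n = 3 each, exact permutation p = 0.6).

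Elastic fiber and fibulin genes held 4 of the 9 genes that were higher by a log2 fold change of more than 1. Of 9 tested, 6 passed, all of them higher in DM. FBLN2, a fibulin that binds fibronectin, elastin and laminins, had 126, 111 and 91.6 FPKM in DM and 20.5, 21.3 and 21.5 FPKM in GM. This was the largest rise of the tested matrix genes, 5.19-fold by mean FPKM (log2 fold change 2.31, standard error 0.12, adjusted p = 0.000197). FBLN5, which places elastin on microfibrils, had 21.8, 25.5 and 27.1 FPKM in DM and 5.42, 6.27 and 6.11 FPKM in GM (log2 fold change 1.89, standard error 0.10, adjusted p = 0.000201). Both fibulins were more than 3-fold higher in every DM library than in any GM library.

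ELN, elastin itself, was at a low level and had 5.55, 4.13 and 3.23 FPKM in DM and 0.938, 0.751 and 0.822 FPKM in GM. The fold between the means was 5.14 (log2 fold change 1.51, standard error 0.16), with DM_1 the highest library. FBLN1 differed little, at 19.5 ± 0.279 FPKM in DM and 15.7 ± 0.963 FPKM in GM (SD, n = 3 each, log2 fold change 0.30, adjusted p = 0.0183), a call lost with DM_2, GM_1 or GM_3 left out (adjusted p up to 0.0673). EFEMP1, a fibulin also called fibulin-3, averaged 13.3 ± 0.998 FPKM in DM and 14.02 ± 0.764 FPKM in GM (SD, n = 3 each) and did not pass (adjusted p = 0.535).

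Fibrillins, the backbone of the microfibrils on which elastin is laid, differed from each other. FBN3, a fibrillin of embryonic tissues in humans, had 37.7, 34.8 and 38.0 FPKM in DM and 15.1, 13.9 and 13.6 FPKM in GM (log2 fold change 1.32, standard error 0.068, adjusted p = 0.000201). It was the most abundant fibrillin in DM. FBN2 had 8.14, 8.21 and 9.21 FPKM in DM and 6.52, 5.86 and 5.86 FPKM in GM (log2 fold change 0.43, standard error 0.081, adjusted p = 0.0120). FBN1, the most abundant fibrillin in GM, had 24.8, 21.4 and 19.9 FPKM in DM and 24.4, 23.4 and 26.7 FPKM in GM, which overlapped (adjusted p = 0.242). The ratio of FBN2 to FBN1 was 0.391 ± 0.0679 in DM and 0.246 ± 0.0242 in GM (SD, n = 3 each), with no overlap (exact permutation p = 0.1). EMILIN2, an elastin microfibril glycoprotein, averaged 26.9 ± 3.12 FPKM in DM and 29.3 ± 1.23 FPKM in GM (SD, n = 3 each, adjusted p = 0.339), and EMILIN3 and FBLN7 were not tested.

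FN1, fibronectin, the adhesive glycoprotein on which collagen fibrils assemble, was the 14th highest gene of the table. It had 837, 738 and 767 FPKM in DM and 1091, 997 and 1174 FPKM in GM. All DM libraries were lower (log2 fold change -0.48, standard error 0.090, adjusted p = 0.0113). Among these abundant genes the order of levels in FPKM differed by stage, with FN1 below COL1A2 and COL3A1 in every DM library and above both in every GM library.

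**Figure D4:**
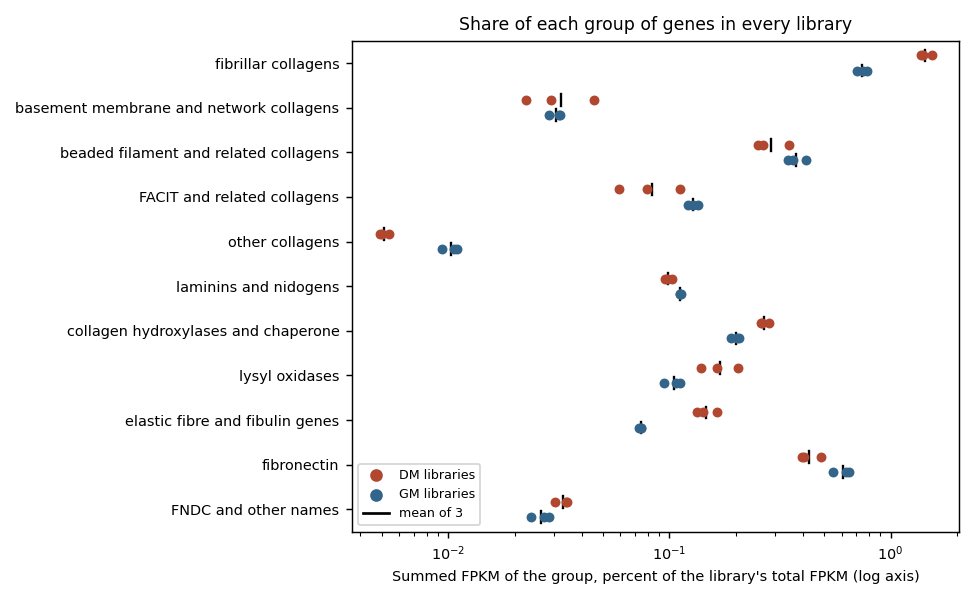
Summed FPKM of each group of matrix genes as a percent of the total FPKM of a library, on a log axis, with DM libraries in red (upper dots of a group), GM libraries in blue (lower dots) and the mean of 3 as a black tick. Fibrillar collagens took 1.44% in DM and 0.746% in GM, and fibronectin 0.429% in DM and 0.608% in GM.

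Summed over the 78 genes, matrix FPKM took 3.32%, 2.86% and 2.78% of the total FPKM in DM_1, DM_2 and DM_3, against 2.52%, 2.27% and 2.45% in GM_1, GM_2 and GM_3. With COL1A1 counted in, the shares averaged 3.91 ± 0.450% in DM and 2.88 ± 0.174% in GM (SD, n = 3 each). Fibrillar collagens had the largest difference of the groups, with 1.44 ± 0.0871% in DM and 0.746 ± 0.0376% in GM. With the 10 genes of highest mean FPKM taken out of the total, their share was 0.812 percentage points higher in DM. The lysyl oxidases held 0.169 ± 0.0329% in DM and 0.104 ± 0.00901% in GM. The FACIT and related collagens held 0.0832 ± 0.0262% in DM and 0.128 ± 0.00651% in GM. The hydroxylases and chaperone held 0.267 ± 0.0124% in DM and 0.199 ± 0.00771% in GM, and the elastic fiber and fibulin genes 0.146 ± 0.0161% in DM and 0.0740 ± 0.000824% in GM. Type VI and related collagens held 0.288 ± 0.0523% in DM and 0.374 ± 0.0369% in GM. Their libraries overlapped, with 0.348% in DM_1 and 0.344% in GM_2. The laminins and nidogens held 0.0984 ± 0.00385% in DM and 0.112 ± 0.000525% in GM. Basement membrane and network collagens held 0.0324 ± 0.0118% in DM and 0.0307 ± 0.00177% in GM, also with overlap. COL1A2, COL3A1 and FN1 together held 1.78 ± 0.129% in DM and 1.29 ± 0.0851% in GM, more than all other matrix genes of the rule combined in either stage.

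The DM libraries were not alike in their matrix. In 27 of the 61 tested genes (44.3%) DM_1 was the highest and DM_3 the lowest DM library, against 16.8% of all tested genes. LOX, COL12A1, COL4A1, COL8A1, ELN and FBLN2 were among them. In another 17 genes DM_3 was the highest and DM_1 the lowest, among them LAMA4, NID2, P4HA2 and FBLN5. The share of all tested genes in this reverse order was not computed. The median coefficient of variation over the matrix genes was 8.80% in DM and 6.79% in GM. Over all tested genes it was 11.4% in DM and 8.64% in GM. By this measure the matrix genes varied less than the tested genes in general in each stage. They also stood at a higher level (medians of 11.7 FPKM and 5.46 FPKM), and the measure was not matched for level. The smooth muscle actin gene ACTA2 was likewise highest in DM_1 and lowest in DM_3, at 290.0, 241 and 199.6 FPKM in DM_1, DM_2 and DM_3. The other tested markers of its list did not share this order, with MYH11 highest in DM_2 and RGS5 in DM_3. Of the fibroblast markers, THY1, MFAP5 and OGN had the order of ACTA2, and DCN and FAP had the reverse order. The part of these markers in the spread of the DM libraries was not tested. The study's methods give 3 days of differentiation for the collected cultures, where the labels give 2 to 4 days.

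**Figure D5:**
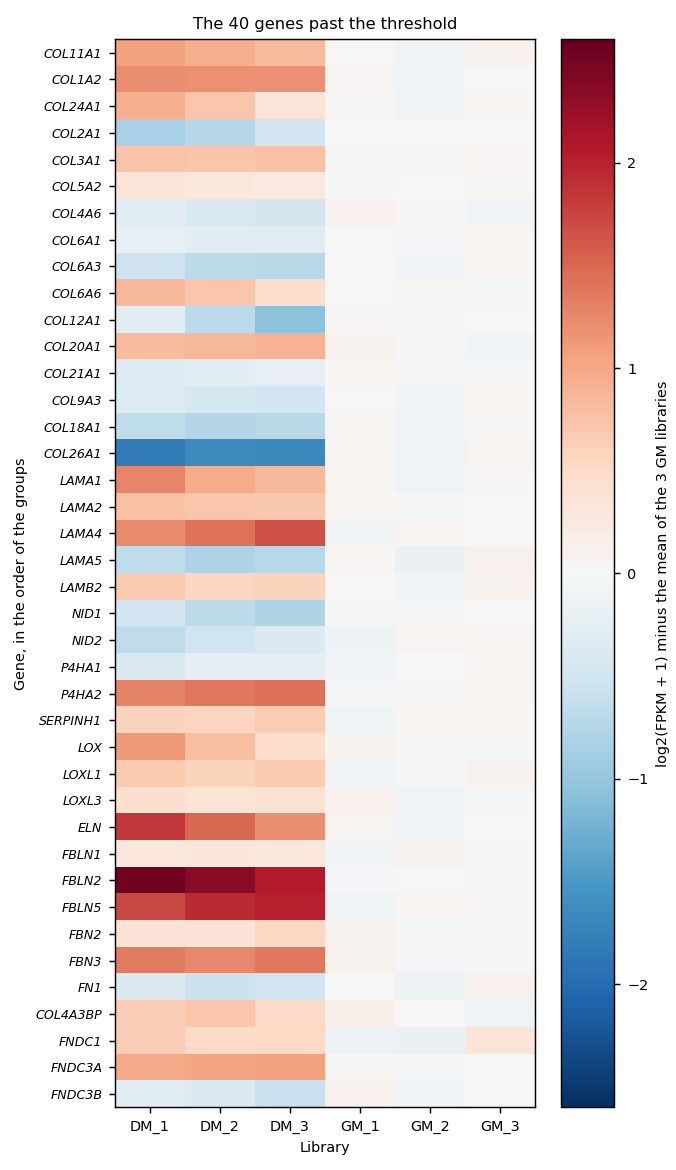
Log2(FPKM + 1) of the 40 matrix genes that passed, in each library, as the difference from the mean of the 3 GM libraries (red above it, blue below it), with DM libraries in the left columns and GM libraries in the right columns. FBLN2, FBLN5 and ELN are the deepest red rows in DM and COL26A1 the deepest blue row, and several genes such as LOX and COL12A1 are highest in DM_1 among the DM libraries.

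The names that the rule took in by spelling gave 3 higher and 1 lower gene of 8 tested. FNDC3A, a membrane protein with fibronectin type III domains, had 13.01, 13.5 and 13.7 FPKM in DM and 6.30, 5.88 and 6.13 FPKM in GM (log2 fold change 1.02, standard error 0.063, adjusted p = 0.000312). Its value lay at the limit of 1 and was 0.997 with GM_2 left out. Its relative FNDC3B was lower in DM, at 6.90 ± 0.854 FPKM in DM and 9.46 ± 0.848 FPKM in GM (SD, n = 3 each, log2 fold change -0.41, adjusted p = 0.0352), a call lost when any library but DM_1 was left out (adjusted p up to 0.105), and also with median-ratio scaling (0.0574) and no filter on low values (0.0505). FNDC1 averaged 18.3 ± 1.02 FPKM in DM and 12.4 ± 2.69 FPKM in GM (log2 fold change 0.55, adjusted p = 0.0330) and passed with GM_3 left out but not with any other library left out (adjusted p up to 0.0979) and not with no filter on low values (0.0580).

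COL4A3BP, which encodes a ceramide transporter and no collagen, averaged 9.47 ± 0.790 FPKM in DM and 5.80 ± 0.574 FPKM in GM (SD, n = 3 each, log2 fold change 0.62, adjusted p = 0.00577). FNDC5, the precursor of the secreted peptide irisin, had 6.72, 11.4 and 8.61 FPKM in DM and 11.9, 8.95 and 8.85 FPKM in GM, which overlapped (adjusted p = 0.601). FNDC4, FNDC7 and LOXHD1 did not pass either, and FNDC9 was not tested. Without these 9 names, 22 of the 53 tested genes were higher and 14 lower in DM, 67.9% in all.

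Genes that act with these proteins were taken from a list of collagen biosynthesis and matrix partners, of which 50 were tested. Of these, 7 were higher and 10 lower in DM (34.0%), close to the 30.3% of all tested genes. SPARC, a calcium-binding glycoprotein that binds fibrillar collagen, had 680.0, 658 and 626 FPKM in DM and 275, 263 and 288 FPKM in GM (log2 fold change 1.25, standard error 0.066, adjusted p = 0.000201). MFAP2, a glycoprotein of fibrillin microfibrils, had 12.3, 14.3 and 15.98 FPKM in DM and 5.23, 5.42 and 6.13 FPKM in GM (log2 fold change 1.20, standard error 0.11, adjusted p = 0.00105). These were the partner genes beyond a log2 fold change of 1, and in both every DM library was above every GM library.

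The other higher partners were CREB3L1, PCOLCE2, ADAMTS14, FKBP10 and CRTAP, with log2 fold changes of 0.22 to 0.99. Among them, CREB3L1 encodes a transcription factor of secretory cells, PCOLCE2 an enhancer of procollagen processing, and CRTAP and FKBP10 proteins that fold and modify collagen in the endoplasmic reticulum. The lower partners were TGM2, ITGA3, KDELR3, AGRN, MATN2, TLL2, KDELR2, ITGA2, P3H4 and ITGA10. Of these, ITGA2, ITGA3 and ITGA10 encode integrin subunits, and KDELR2 and KDELR3 receptors that return chaperones to the endoplasmic reticulum. KDELR2, the most abundant of them, had 151, 163 and 164 FPKM in DM and 194, 225 and 206 FPKM in GM (log2 fold change -0.38, standard error 0.075, adjusted p = 0.0130), with no overlap. The counts of the partner list were unsteady, since 3 to 7 were higher and 5 to 11 lower with a library left out, the fewest lower ones without GM_2 and the fewest higher ones without GM_2 or GM_3.

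By the annotation in the gene table, the tested matrix genes were also counted within terms. Of the 21 tested genes in focal adhesion 7 were higher, 7 were lower and 7 did not pass, and of the 20 in ECM-receptor interaction 6 were higher and 7 lower. Of the 17 tested of 20 listed as structural constituents of the extracellular matrix, 9 were higher and 2 lower in DM. Of the 7 tested of 13 listed in the basement membrane, 1 was higher and 4 lower. Some other terms were near even, with 3 higher and 3 lower in collagen trimer, 3 higher and 4 lower in extracellular matrix, and 7 higher and 6 lower in extracellular space. Calcium ion binding had 5 higher and 2 lower of 9 tested, and oxidation-reduction process 4 higher and 2 lower of 9. Over all tested genes 14.7% were higher and 15.5% lower. Shares over all genes with a term were not computed, so no difference between terms is drawn from these counts. A gene can carry several of these terms.

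The lncRNA table placed 39 transcripts at 20 of the matrix genes, 22 of them within introns. Of 34 transcripts tested, 1 was higher and 1 lower in DM (5.88%), against 3.62% of all tested transcripts in either direction. Past a log2 fold change of 1 there was 1 transcript, higher in DM (2.94%), against 2.01% of all (0.562% higher, 1.45% lower). The higher one, MSTRG.22978.1, lies within an intron of FBN3 and is 7437 bases long. It had 3.99, 2.73 and 2.34 FPKM in DM and 0.980, 0.844 and 0.777 FPKM in GM (log2 fold change 1.09, standard error 0.19, adjusted p = 0.0275), beside the log2 fold change of 1.32 of FBN3. Reads of a separate RNA and of unspliced FBN3 cannot be told apart in these values.

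The lower transcript, MSTRG.22251.3, overlaps COL4A2 and had 1.44, 1.34 and 1.43 FPKM in DM and 3.11, 2.64 and 3.09 FPKM in GM (log2 fold change -0.71, standard error 0.15, adjusted p = 0.0429). MSTRG.3556.1, which lies on the strand opposite to COL12A1, was the most abundant lncRNA that overlapped an exon of a matrix gene in antisense, with 20.2, 11.4 and 9.25 FPKM in DM and 36.2, 27.7 and 27.3 FPKM in GM. Its libraries did not overlap but it did not pass (log2 fold change -1.16, standard error 0.27, adjusted p = 0.0590). The calls of the FBN3 transcript and of the COL4A2 transcript were both lost with DM_2, GM_1, GM_2 or GM_3 left out. That of the COL4A2 transcript was also lost without DM_1 or DM_3, and so with any library left out. Without DM_1 the 1 lower call was past a log2 fold change of 1, which by its values was MSTRG.3556.1.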

How the data were processed

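RNA was measured in 6 libraries, 3 of the DM stage and 3 of the GM stage, as named by the labels. Per the submitters' processing notes, Cutadapt, FastQC, HISAT2, TopHat, StringTie and edgeR were used, and the study's methods name Bowtie2 for mapping and StringTie and Ballgown for the expression values, so which mapper lies behind the values is not settled. The authors deposited FPKM values, fragments scaled by gene length and by mapped fragments, with 0.0001 in place of 0. No read counts were among the values used, so no counting intervals can be given, and precision rests on 3 libraries a stage. Further columns hold a comparison made by the authors (a fold change, its log2 value, a p-value, a q-value and a call), which was not used. No per-sample column was left out (0 columns).

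A linear model of log2(FPKM + 1) with trended empirical Bayes (limma 3.58.1, R 4.3.3) was used for rows that averaged 0.5 FPKM or more, with Benjamini-Hochberg adjustment over all tested rows. Since FPKM and no counts were available, no count model was run. Adjusted p-values in the text come from this fit. Ratios within a library were compared with exact two-sided permutation tests of their log2 values (scipy 1.17.1, Python 3.11.15), adjusted over the 14 ratios. The fit was also run on simulated data, with independent noise for each gene and changes of a single size. Such data cannot check effects shared by the genes of a library or smaller changes, and are not used here as support for the calls.

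The genes, role groups and lists were chosen with earlier results of these data known. Genes given in full were those past a log2 fold change of 1, the 2 of highest mean FPKM in each role group, those in a ratio, those that are no matrix genes, and, of the partner list, those past a log2 fold change of 1 and the 3 of highest FPKM. The other genes were named after their values were seen. Rows that name LOXL4, COL13A1, COL15A1 or LAMC3 after another gene do not match the rule and were not analysed here. Neighbours were read from a RefSeq gene table of a goose assembly, in which 77 of the 78 symbols were found, without its coordinates. Codes of the deposited lncRNA table gave the place of a transcript relative to a gene. The values of 1 gene below the level tested are not reported here. No sequences are shown. Alternatives were quantile normalization, median-ratio scaling, no trend, no filter on low values, a filter at 2 FPKM, a pseudocount of 0.1, the replicate number as a block, and each library left out in turn.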

Additional observations from a re-analysis of the deposited data

How the results depend on the processing

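Under 13 alternatives, the 10 genes past a log2 fold change of 1 kept an adjusted p-value under 0.05 in limma. With a library left out in turn, the genes higher in DM numbered 21 to 26 and those lower 9 to 16, and those past a log2 fold change of 1 numbered 7 to 9 higher and 1 lower. With a pseudocount of 0.1, 13 were higher and 2 lower past that limit.

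Same-numbered DM and GM libraries did not deviate together across genes (correlations of 0.034, 0.021 and -0.0024), so the numbers were not taken as pairs. With that number as a replicate block, 23 genes were higher and 14 lower, 36 of the 40 calls were kept (COL12A1, COL21A1, COL24A1 and FNDC1 were lost), and COL6A2 passed at an adjusted p-value of 0.0372. The lncRNA calls fell to 0 higher and 0 lower with the block, and so did those past a log2 fold change of 1 (0 higher).

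The partner list gave 3 to 7 higher and 5 to 11 lower genes with a library left out, and 2 to 3 higher and 0 to 1 lower past a log2 fold change of 1. It gave 5 lower genes at a mean of at least 2 FPKM, and 4 higher and 2 lower past that limit with a pseudocount of 0.1. The lncRNA transcripts gave 0 to 2 higher (also past that limit) and 0 to 1 lower (also past that limit) with a library left out. At a mean of at least 2 FPKM they gave 0 higher, also past that limit, and 2 lower, and with a pseudocount of 0.1 they gave 1 lower past that limit.

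Of 51 genes given in full, 6 had a log2 fold change that turned in sign, and none of these 6 had passed. LAMC1 was 0.000273 with median-ratio scaling and P4HB was -0.058 with quantile normalization. With a library left out, the ranges were -0.23 to 0.051 for COL4A5, -0.10 to 0.0049 for FNDC4, -0.33 to 0.016 for FNDC5, -0.067 to 0.018 for LAMC1, -0.021 to 0.47 for PLOD1 and -0.21 to 0.25 for P4HB. The log2 ratio differences (DM minus GM) ran from -0.49 to 0.17 for COL4A1/COL4A2, -0.0056 to 0.40 for COL4A5/COL4A1, -0.18 to 0.23 for COL6A1/COL6A2, -0.029 to 0.096 for LAMC1/LAMB1, -0.73 to 0.033 for LOXL2/LOX and -0.41 to 0.086 for PLOD2/PLOD1. Apart from the settings' own construction the causes of these changes were not tested.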
